A study of Mus musculus with 15 samples.

Results

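The Eph receptors and ephrins, the Slits and their Robo receptors, and the netrins with the receptors Dcc, Neo1 and Unc5 were followed through the stimulation of mouse optic tissue grown from embryonic stem cells. Members were taken by symbol, as every gene of these families in the deposited table of 23244 gene entries: 9 EphA and 5 EphB receptors, 5 ephrin-A and 3 ephrin-B ligands, 3 Slits, 4 Robo receptors, 4 netrins, 2 netrin-G genes, 4 Unc5 receptors, Dcc and Neo1, or 41 entries in all. RNA was sequenced from 15 libraries in 5 groups of 3. All came from 1 mouse embryonic stem cell line, Rx::GFP, which reports expression of the eye field gene Rax, and all the stem cells had been kept in medium with the GSK3 inhibitor CHIR99201 at 3 µM and the MEK inhibitor PD0325901 at 1 µM before they were aggregated in serum-free floating culture. Day 10 Rx::GFP+ libraries held fluorescent tissue cut from the rim of the aggregates. +Wnt tissue was then cultured to Day 12 or Day 15 with CHIR99201 again, at 3 µM for the first 24 h and 1 µM afterwards. +Fgf tissue was cultured for the same times with basic Fgf at 5 ng/ml, and only the +Fgf medium also held 10% fetal bovine serum, so serum and Fgf cannot be told apart. No unstimulated library of Day 12 or Day 15 was analysed here, so a change from Day 10 cannot be divided between time and stimulation. The paper calls the 3 libraries of each group biological replicates. Separate cultures are not named in the labels, and the p-values measure the spread between libraries, which may be partly technical.

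These families steer growing axons and keep neighbouring tissue domains apart. Eph receptors are tyrosine kinases that read membrane-bound ephrins on adjoining cells, mostly as repulsion, and graded EphA and EphB receptors in retinal ganglion cells are known for laying out the map of the retina on its brain targets. Slits are secreted repellents read by Robo receptors, netrin-1 attracts axons through Dcc and repels them when Unc5 receptors take part, and netrin-1 at the optic disc is known for guiding ganglion cell axons out of the eye.

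Recovered depth lay between 12556998 and 16175450 reads per library, and 1 read was worth 0.0620 to 0.0764 CPM, the deposited unit (reads scaled to a common library total, by the TMM method of edgeR). The labelled tissue identity was borne out by its markers. Rax, the eye field gene, read 209 to 230 CPM at Day 12 +Fgf and 287 to 343 CPM at Day 15 +Fgf against 39.9 to 51.1 CPM at Day 12 +Wnt and 5.15 to 5.83 CPM at Day 15 +Wnt, while Tyr, the pigment enzyme tyrosinase, read 542 to 667 CPM at Day 15 +Wnt and 23.3 to 30.5 CPM at Day 15 +Fgf. Some +Fgf libraries stood apart within their group in single markers. Day 15 +Fgf replicate 3 had 3.04 CPM of Sox10, a neural crest and glial factor, against 0.0737 and 0 CPM in the other libraries of its group. Day 15 +Fgf replicate 1 had 3.61 CPM of Ttr, against 121 and 66.6 CPM. Day 12 +Fgf replicate 2 had 6.94 CPM of Foxd1, against 0.190 and 0.319 CPM. Values that rest on Day 15 +Fgf replicate 3 are given with and without it. In these bulk samples, fewer cells of a type and less RNA per cell cannot be told apart. Annotated exons of Epha1, Epha6, Epha10, Ephb1, Ephb4, Unc5a, Unc5c, Efna3, Efna4, Ntn3 and Ntn5 overlap exons of a gene on the opposite strand, those of Ntng2 overlap a gene on its own strand, and Ntn3 shares its entry with Tbc1d24. Whether counting used strand is not given in the sources used here, so these genes are less certain than the others.

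Of the 41 members, 39 had at least 1 CPM in at least 3 libraries and were tested. The remaining 2, the endothelial Robo4 at up to 0.446 CPM and Ntn5 at up to 0.136 CPM, were not. Differences below are of log2(CPM + 0.3), with the standard error from 1 limma fit of all 15 libraries, and a call is a limma adjusted p under 0.05 over all 13845 tested genes. The added 0.3 makes the change of low genes appear smaller.

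Most of these genes differed between Day 10 and each Day 12 group. From Day 10 to Day 12 +Fgf, 27 of the 39 were called (69.2%), 15 higher and 12 lower, beside 55.7% of all tested genes (27.9% higher and 27.8% lower). From Day 10 to Day 12 +Wnt, 31 were called (79.5%), 20 higher and 11 lower, beside 60.2% of all genes (30.6% higher and 29.6% lower). Both counts rest on the same Day 10 libraries. From Day 12 to Day 15, 29 were called under +Fgf (74.4%), 18 higher and 11 lower, beside 57.1% of all genes (27.2% higher and 29.9% lower). Under +Wnt, 27 were called (69.2%), 21 higher and 6 lower, beside 68.0% of all genes (32.5% higher and 35.5% lower). With median-of-ratios scaling the split was 22 higher and 3 lower.

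Between the stimulations, 29 members differed at Day 12 (74.4%), 11 higher in +Fgf and 18 higher in +Wnt, beside 51.5% of all genes (26.3% higher in +Fgf and 25.2% higher in +Wnt). At Day 15, 29 differed (74.4%), 12 higher in +Fgf and 17 higher in +Wnt, beside 68.7% of all genes (38.0% and 30.6%). The share of members called was thus above the background by the widest margin at Day 12 between stimulations and close to it in both comparisons that include Day 15 +Wnt. Counting only changes of at least 1 on the log2 scale, the members called were 5 of 39 (12.8%, background 9.34%) for Day 12 +Fgf against Day 10, 10 (25.6%, background 10.5%) for Day 12 +Wnt against Day 10, and 15 (38.5%, background 12.7%) for Day 12 +Fgf against Day 12 +Wnt. They were 12 (30.8%) in each of the other comparisons, with backgrounds of 12.3% for +Fgf and 16.7% for +Wnt from Day 12 to Day 15, and 19.7% between stimulations at Day 15. The median log2 difference of the members between +Fgf and +Wnt was -0.45 at Day 12 and -0.23 at Day 15, beside -0.0021 and 0.051 over all genes. The 2 groups compared did not overlap in any library for 27 members (background 61.0% of all genes) between Day 10 and Day 12 +Fgf, 29 (64.3%) between Day 10 and Day 12 +Wnt, 28 (63.7%) and 28 (72.8%) from Day 12 to Day 15 under +Fgf and +Wnt, and 32 (60.4%) and 31 (73.1%) between the stimulations at Day 12 and Day 15. With RNA integrity as a covariate, called members fell from 29 to 18 between Day 12 and Day 15 +Fgf and from 29 to 15 between stimulations at Day 15. In the latter the split became 8 higher in +Fgf and 7 higher in +Wnt. By the paper's values, RNA integrity was lower in every Day 15 +Fgf library than in any Day 12 +Fgf or Day 15 +Wnt library. Integrity and group therefore cannot be told apart in these 2 comparisons. Every Day 10 library also had lower integrity than any Day 12 library, so the same holds for both Day 12 groups against Day 10. There the covariate took called members from 27 to 22 for +Fgf and from 31 to 25 for +Wnt. The shares of all genes called with this covariate are not given here, so these falls cannot be set against a background.

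**Figure D1:**
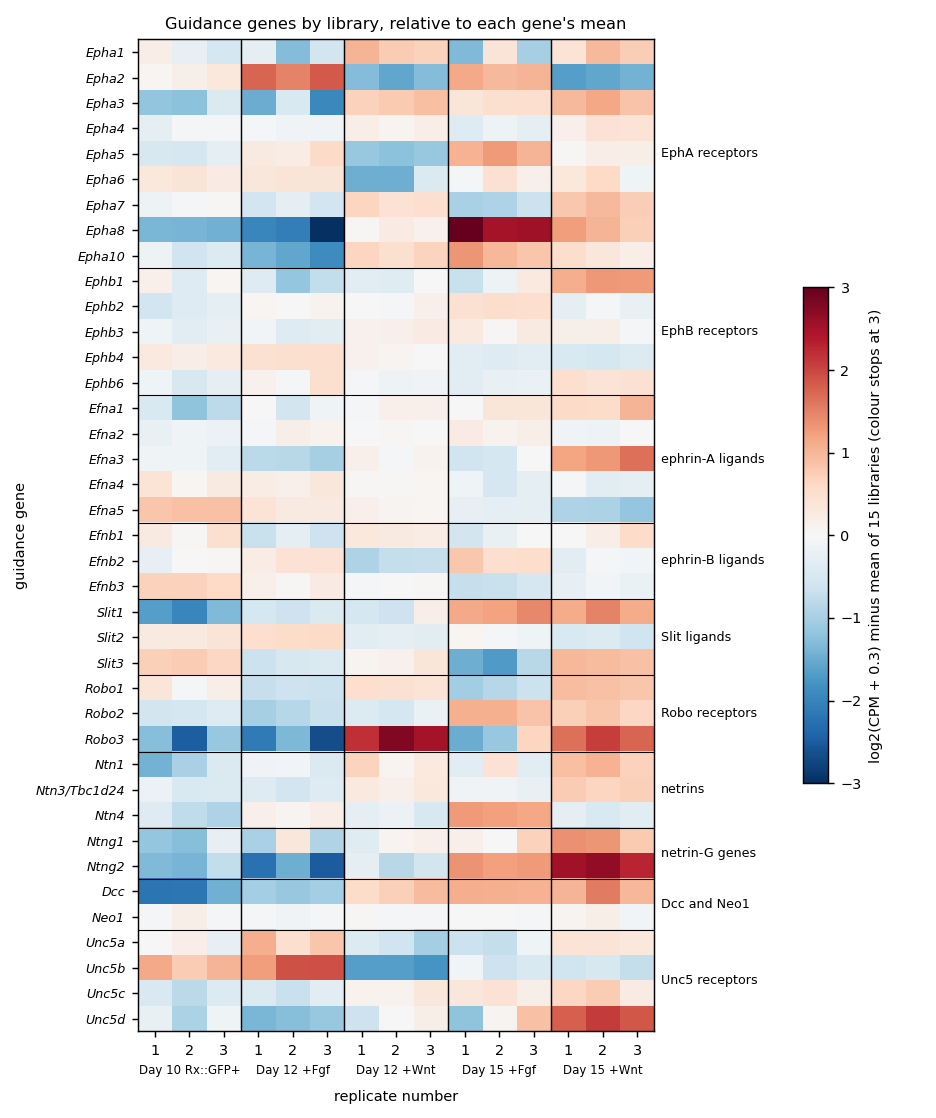
Heat map of the 39 tested guidance genes (rows, by family) in the 15 libraries (columns, by group), coloured by log2(CPM + 0.3) minus the mean of the gene over all libraries, with the scale stopped at 3. Day 15 +Wnt holds the highest group mean for 18 of the 39 genes, Day 15 +Fgf for 10, Day 12 +Fgf for 6, Day 10 for 3 and Day 12 +Wnt for 2.

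Among the EphA receptors, all 9 differed between the stimulations at Day 12, 3 higher in +Fgf (Epha2, Epha5 and Epha6) and 6 higher in +Wnt. Of all tested genes, 51.5% differed. Epha2 (XLOC_014215, chr4:141301240-141329384, plus strand, build mm10), a receptor found on many epithelia, was among the receptors that differed most between the stimulations. It read 18.3, 19.7 and 22.0 CPM at Day 10, 59.1, 49.4 and 63.4 CPM at Day 12 +Fgf, 6.98, 5.78 and 6.95 CPM at Day 12 +Wnt, 38.6, 34.7 and 36.0 CPM at Day 15 +Fgf, and 5.40, 5.74 and 6.38 CPM at Day 15 +Wnt. The Day 10 libraries thus lay between the stimulated groups, with no overlap on either side. Epha2 rose by 1.50 (SE 0.11, limma adjusted p = 1.24e-08) from Day 10 to Day 12 +Fgf and fell by 1.56 (SE 0.11, limma adjusted p = 6.08e-09) to Day 12 +Wnt. The +Fgf to +Wnt difference was 3.06 (SE 0.11, limma adjusted p = 1.49e-12) at Day 12 and 2.58 (SE 0.11, limma adjusted p = 3.16e-12) at Day 15.

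Epha5, one of the graded EphA receptors of the retina, read 37.2 to 44.0 CPM at Day 10, 63.9, 62.1 and 79.5 CPM at Day 12 +Fgf, 24.1, 22.7 and 23.9 CPM at Day 12 +Wnt, 109, 130 and 107 CPM at Day 15 +Fgf, and 54.3, 61.2 and 60.0 CPM at Day 15 +Wnt. +Fgf libraries were above +Wnt libraries on both days, and both stimulations rose between the days. The difference between stimulations was 1.52 (SE 0.09, limma adjusted p = 9.31e-10) at Day 12 and 0.97 (SE 0.09, limma adjusted p = 9.77e-08) at Day 15.

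Epha7 and Epha3, which bind the ephrin-A ligands, ran the other way. Epha7 read 27.8, 30.0 and 31.4 CPM at Day 10, 20.7, 25.4 and 20.5 CPM at Day 12 +Fgf, 48.0, 41.3 and 43.6 CPM at Day 12 +Wnt, 15.5, 15.9 and 19.4 CPM at Day 15 +Fgf, and 54.0, 60.9 and 51.8 CPM at Day 15 +Wnt. Every +Wnt library was above every Day 10 library and every +Fgf library below. It was lower in +Fgf by 0.99 at Day 12 (log2 difference -0.99, SE 0.10, limma adjusted p = 3.91e-07) and differed by -1.70 at Day 15 (SE 0.10, limma adjusted p = 2.29e-10). For Epha3 the values were 8.31, 8.09 and 14.1 CPM at Day 10, 6.65, 14.0 and 4.86 CPM at Day 12 +Fgf, 31.4, 33.5 and 35.9 CPM at Day 12 +Wnt, 24.9, 27.1 and 27.5 CPM at Day 15 +Fgf, and 37.8, 43.0 and 35.1 CPM at Day 15 +Wnt. The Day 12 +Fgf libraries overlapped Day 10, while Day 12 +Wnt stood wholly above both. Its Day 12 difference was -2.08 (SE 0.26, limma adjusted p = 4.93e-06), and at Day 15 it was -0.54 (95% interval -1.10 to 0.02, limma adjusted p = 0.0796). The Day 12 +Fgf library with 14.0 CPM of Epha3 also had 6.94 CPM of Foxd1, a factor of the temporal retina, against 0.190 and 0.319 CPM in the other libraries of its group. Without it the Day 12 difference of Epha3 was -2.50.

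The stretches of 250 bases before the gene start of 2 receptors higher in +Fgf at Day 12 (Epha2 and the netrin receptor Unc5b) and of 2 higher in +Wnt (Epha3 and Epha7) show the base composition and GC boxes in front of these opposite groups. They are from the RefSeq promoter table on build GRCm38.p6, read 5′ to 3′ on the strand of the gene, and capitals mark the GC box GGGCGG or its complement CCGCCC. None holds a base of an annotated exon.

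Epha2, chr4:141300971-141301220, plus strand: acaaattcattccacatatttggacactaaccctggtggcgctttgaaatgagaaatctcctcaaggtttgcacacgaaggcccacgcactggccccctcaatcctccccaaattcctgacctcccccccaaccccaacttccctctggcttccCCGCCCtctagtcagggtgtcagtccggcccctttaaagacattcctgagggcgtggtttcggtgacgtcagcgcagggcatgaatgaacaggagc

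Unc5b, chr10:60831582-60831831, minus strand: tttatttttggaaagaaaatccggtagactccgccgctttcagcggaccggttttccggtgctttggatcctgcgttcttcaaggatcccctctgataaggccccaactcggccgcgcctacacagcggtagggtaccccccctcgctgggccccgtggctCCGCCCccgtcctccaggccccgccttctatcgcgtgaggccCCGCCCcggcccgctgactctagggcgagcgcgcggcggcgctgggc

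Epha3, chr16:63864176-63864425, minus strand: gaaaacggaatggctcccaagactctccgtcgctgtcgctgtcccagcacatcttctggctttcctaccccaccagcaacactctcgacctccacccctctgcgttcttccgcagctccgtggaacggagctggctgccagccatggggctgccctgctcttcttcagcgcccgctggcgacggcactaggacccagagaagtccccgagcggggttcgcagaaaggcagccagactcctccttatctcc

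Epha7, chr4:28812881-28813130, plus strand: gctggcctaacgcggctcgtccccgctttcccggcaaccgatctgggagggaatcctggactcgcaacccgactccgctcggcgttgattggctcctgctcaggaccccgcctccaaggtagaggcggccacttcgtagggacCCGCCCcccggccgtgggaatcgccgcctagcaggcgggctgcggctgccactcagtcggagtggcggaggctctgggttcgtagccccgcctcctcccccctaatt

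The GC content of the printed stretches was 55.6% for Epha2, 66.8% for Unc5b, 62.8% for Epha3 and 69.2% for Epha7, and the GC boxes numbered 1, 2, 0 and 1 in the same order. Across the families, 36 of the 41 members matched 41 promoter entries of the table, and 28 of those 41 entries held a GC box on either strand, against 32.7% of all 32851 entries. The motif CTTTGAT (or ATCAAAG), bound by TCF and LEF factors at Wnt targets, was in 0 of the 41 member entries and in 3.21% of all entries. CCGGAAG (or CTTCCGG), the core of many sites of ETS factors that act downstream of Fgf, was in 1 member entry, that of Ephb6, and in 6.91% of all entries. The motifs do not overlap in letters, and an absence says only that these letters are not in these windows.

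Epha8 and Epha10 had the widest changes of the EphA family between the days under +Fgf. Epha8 (XLOC_014887, chr4:136929419-136956816, minus strand), a receptor known from the developing superior colliculus, read 0.818, 0.802 and 0.764 CPM at Day 10, 0.444, 0.382 and 0 CPM at Day 12 +Fgf, 2.64, 3.13 and 2.85 CPM at Day 12 +Wnt, 24.0, 16.1 and 16.5 CPM at Day 15 +Fgf, and 6.64, 5.59 and 4.42 CPM at Day 15 +Wnt. At Day 12 the +Wnt libraries were above the +Fgf libraries and at Day 15 below them, without overlap on either day. From Day 12 to Day 15 it rose by 5.14 under +Fgf (SE 0.28, limma adjusted p = 2.43e-10), a size that depends on the added constant because the Day 12 +Fgf values are so low: 6.40 with 0.05 added and 3.96 with 1 added. Under +Wnt it rose by 0.87 (SE 0.28, limma adjusted p = 0.0103), a call lost with 0.05 added (0.92) and under quantile normalization (0.24). Epha10, which has no active kinase, read 3.68, 2.61 and 3.06 CPM at Day 10, 1.39, 1.21 and 0.894 CPM at Day 12 +Fgf, 6.67, 5.85 and 6.69 CPM at Day 12 +Wnt, 10.8, 8.52 and 7.56 CPM at Day 15 +Fgf, and 6.08, 5.29 and 4.77 CPM at Day 15 +Wnt. Its order of the stimulations also turned between the days, from -2.20 (SE 0.18, limma adjusted p = 2.27e-08) at Day 12 to 0.70 (SE 0.18, limma adjusted p = 0.00217) at Day 15, and the Day 15 call was lost with RNA integrity as a covariate (0.59).

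The other EphA receptors moved less or were low. Epha4, which binds ephrins of both classes, stayed between 52.6 and 92.8 CPM in all 15 libraries and was higher in +Wnt by a log2 difference of -0.25 at Day 12 and -0.59 at Day 15 (limma adjusted p = 0.0162 and 5.6e-06). Epha1 and Epha6 never passed 3.46 CPM. Per kilobase of merged exon, Epha2 made up 21.2% of EphA receptor RNA at Day 10, 42.7% ± 3.6 (SD, n = 3) at Day 12 +Fgf and 6.0% ± 0.4 at Day 12 +Wnt, where Epha4 held 41.5% ± 0.1 and Epha7 19.3% ± 1.1. By Day 15 +Fgf, Epha2 (24.0% ± 1.5), Epha4 (21.9% ± 1.8) and Epha5 (21.2% ± 1.8) lay close together, and Epha8 had reached 12.3% ± 2.8.

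EphB receptors changed over smaller ranges. Ephb1, an EphB receptor known for turning ventral retinal axons at the chiasm, was the one member of this family with a change of at least 1 in a comparison. It read 11.3, 7.69 and 10.5 CPM at Day 10, 7.67, 4.33 and 5.94 CPM at Day 12 +Fgf, 8.11, 7.80 and 10.0 CPM at Day 12 +Wnt, 6.27 to 12.4 CPM at Day 15 +Fgf, and 22.0, 25.5 and 25.0 CPM at Day 15 +Wnt. All Day 15 +Wnt libraries were above every library of the other groups, and Day 12 +Fgf lay just below Day 10 and Day 12 +Wnt. The fall from Day 10 to Day 12 +Fgf (-0.71, SE 0.22, limma adjusted p = 0.0118) was lost without Day 10 replicate 1 (-0.60) or Day 12 +Fgf replicate 2 (-0.51). From Day 12 to Day 15 +Wnt the rise was 1.46 (SE 0.22, limma adjusted p = 1.73e-05), and at Day 15 +Fgf was lower by a log2 difference of -1.41 (SE 0.22, limma adjusted p = 2.41e-05), which was -0.79 and not called with RNA integrity as a covariate. Its rise of 0.58 between Day 12 and Day 15 +Fgf (limma adjusted p = 0.0322) was lost without Day 12 +Fgf replicate 2 (0.38) or 3 (0.60), and without Day 15 +Fgf replicate 2 (0.57) or 3 (0.35).

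Ephb2, highest in the ventral retina, read 82.0 to 99.3 CPM at Day 10, 123 to 132 CPM at Day 12 +Fgf, 119 to 136 CPM at Day 12 +Wnt, 169 to 175 CPM at Day 15 +Fgf and 102 to 118 CPM at Day 15 +Wnt. Both Day 12 groups overlapped, with a difference of 0.02 (95% interval -0.13 to 0.16), while at Day 15 the +Fgf libraries were higher by 0.68 (SE 0.07, limma adjusted p = 1.99e-07). Ephb4, the main EphB transcript per kilobase, made up 59.7% ± 0.3 of EphB receptor RNA at Day 10 and fell between Day 12 and Day 15 in both stimulations, by 0.84 under +Fgf and by 0.54 under +Wnt (limma adjusted p = 4.59e-10 and 3.69e-08). Ephb3 stayed between 16.8 and 26.8 CPM, and Ephb6, which lacks kinase activity, between 16.6 and 33.1 CPM.

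**Figure D2:**
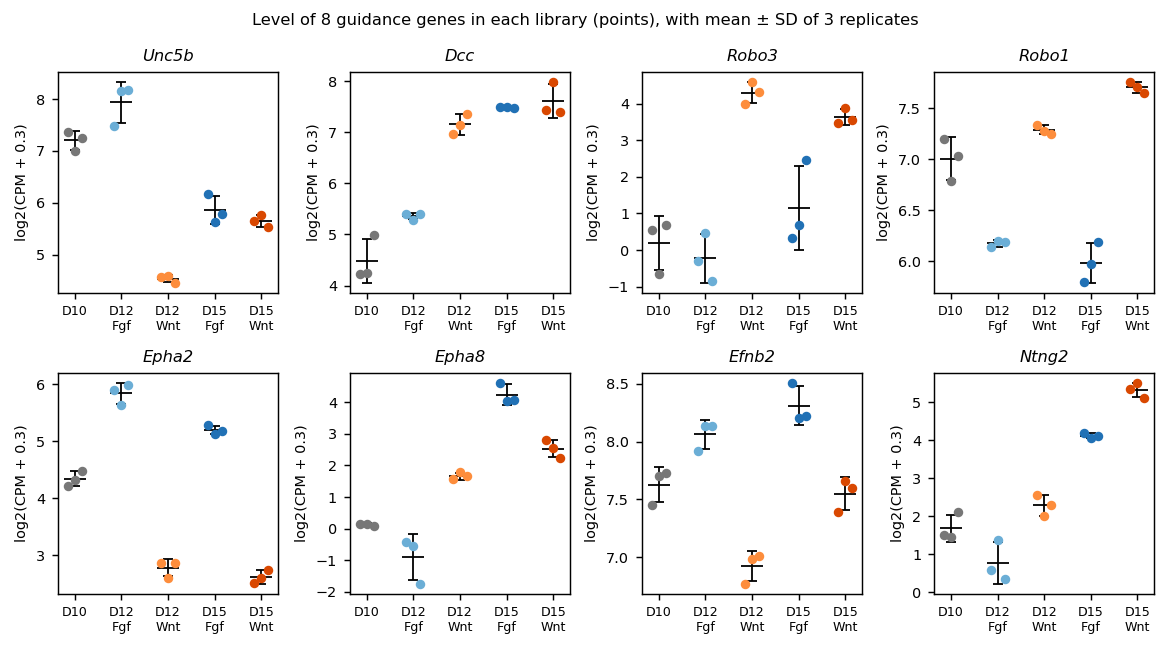
Level of 8 guidance genes on the log2(CPM + 0.3) scale (vertical axis) in each library (dots) of the 5 groups, with the mean ± SD over the 3 libraries of a group. Epha2 and Unc5b are highest at Day 12 +Fgf, Robo3 at Day 12 +Wnt, Robo1 and Ntng2 at Day 15 +Wnt, and Epha8 at Day 15 +Fgf, while Dcc is about equal in both Day 15 groups.

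Among the ligands of these receptors, Efnb2 differed most between the stimulations at Day 12. Efnb2 (XLOC_020328, chr8:8617434-8661242, minus strand), the transmembrane ligand ephrin-B2 that is graded along the dorsal retina, read 175, 208 and 212 CPM at Day 10, 242, 281 and 281 CPM at Day 12 +Fgf, 109, 126 and 129 CPM at Day 12 +Wnt, 364, 295 and 298 CPM at Day 15 +Fgf, and 167, 202 and 194 CPM at Day 15 +Wnt. It was above Day 10 in every +Fgf library and below it in every Day 12 +Wnt library, and the Day 15 +Wnt libraries overlapped Day 10. The +Fgf libraries were higher by 1.14 at Day 12 (SE 0.10, limma adjusted p = 4.99e-08) and by 0.76 at Day 15 (SE 0.10, limma adjusted p = 2.83e-06). The rise of 0.25 from Day 12 to Day 15 +Fgf (limma adjusted p = 0.0389) was lost without Day 12 +Fgf replicate 1 (0.18) or Day 15 +Fgf replicate 1 (0.15).

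Efna5, the ephrin-A5 ligand that forms a gradient in the tectum, was called lower in every step away from Day 10. It read 134 to 137 CPM at Day 10, 98.4, 90.0 and 89.4 CPM at Day 12 +Fgf, 83.3, 79.1 and 78.0 CPM at Day 12 +Wnt, 62.5, 61.9 and 60.5 CPM at Day 15 +Fgf, and 38.8, 38.6 and 32.9 CPM at Day 15 +Wnt. These 5 groups did not overlap. It fell by 0.55 and by 0.76 from Day 10 to Day 12 +Fgf and +Wnt, and then by 0.58 under +Fgf and by 1.12 under +Wnt (limma adjusted p from 1.11e-06 to 1.17e-10). Efnb3 likewise was highest at Day 10, at 128 to 138 CPM, and was called lower at Day 12 in both stimulations, at 86.8 to 100 CPM under +Fgf and 81.4 to 87.2 CPM under +Wnt.

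Efna3 moved the opposite way to Efna5 under +Wnt. Its values were 7.84, 7.69 and 6.65 CPM at Day 10, 4.69, 4.59 and 4.09 CPM at Day 12 +Fgf, 9.44, 8.28 and 9.14 CPM at Day 12 +Wnt, 5.53, 5.77 and 8.41 CPM at Day 15 +Fgf, and 19.7, 21.2 and 27.1 CPM at Day 15 +Wnt. Day 15 +Wnt was above all other libraries. The rise under +Wnt was 1.30 (SE 0.15, limma adjusted p = 1.2e-06) and the difference between stimulations at Day 15 was -1.75 (SE 0.15, limma adjusted p = 2.96e-08). Its rise of 0.51 under +Fgf (limma adjusted p = 0.00951) was lost without Day 15 +Fgf replicate 3 (0.33). Efna1, Efna3 and Efna4 lie in 1 cluster on chromosome 3, with gaps of 32.8 and 10.4 kb, and did not move as a block. Efna1 read 1.07 to 6.03 CPM in all libraries, and Efna4 was called lower between Day 12 and Day 15 in both stimulations. Efna2 stayed between 19.8 and 27.5 CPM. Efnb1 was lower at Day 12 +Fgf, at 39.7 to 52.5 CPM, than at Day 10, at 64.2 to 88.3 CPM (log2 difference -0.77, SE 0.15, limma adjusted p = 0.000352).

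The Slit ligands diverged from one another. Slit2, a repellent made in the embryonic eye and ventral forebrain, read 134 to 145 CPM at Day 10, 157 to 166 CPM at Day 12 +Fgf, 87.2 to 90.1 CPM at Day 12 +Wnt, 101 to 115 CPM at Day 15 +Fgf and 73.0 to 83.7 CPM at Day 15 +Wnt. The +Fgf libraries were above the +Wnt libraries on both days, by 0.88 at Day 12 (SE 0.06, limma adjusted p = 1.91e-09) and by 0.44 at Day 15 (SE 0.06, limma adjusted p = 3.85e-06). Slit1, which retinal ganglion cells express, read 2.93, 2.34 and 3.74 CPM at Day 10, 6.78, 6.31 and 7.22 CPM at Day 12 +Fgf, 6.79, 6.33 and 11.5 CPM at Day 12 +Wnt, 22.0, 23.1 and 27.5 CPM at Day 15 +Fgf, and 21.7, 28.3 and 21.7 CPM at Day 15 +Wnt. It rose at every step, by 1.12 and 1.33 to Day 12 and by 1.79 and 1.55 to Day 15 under +Fgf and +Wnt (limma adjusted p from 0.000144 to 8.45e-07). The stimulations overlapped on both days. The difference between them was -0.22 at Day 12 (95% interval -0.63 to 0.20) and 0.03 at Day 15 (95% interval -0.39 to 0.44).

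Slit3 read 11.2, 11.6 and 10.5 CPM at Day 10, 4.12, 4.71 and 4.86 CPM at Day 12 +Fgf, 7.11, 7.31 and 8.67 CPM at Day 12 +Wnt, 2.21, 1.85 and 3.60 CPM at Day 15 +Fgf, and 13.6, 13.1 and 12.6 CPM at Day 15 +Wnt. Both Day 12 groups were below Day 10, after which +Fgf went on down and +Wnt ended above Day 10. The Day 15 difference was -2.27 (SE 0.17, limma adjusted p = 4.31e-09). Its fall of 0.51 to Day 12 +Wnt (log2 difference -0.51, limma adjusted p = 0.0163) was lost without Day 12 +Wnt replicate 1 (-0.46) or replicate 2 (-0.48), and the fall from Day 12 to Day 15 +Fgf (-0.81, limma adjusted p = 0.000675) was lost with RNA integrity as a covariate (-0.51). Per kilobase, Slit1 went from 6.5% ± 1.3 of Slit RNA at Day 10 to 46.7% ± 3.7 at Day 15 +Fgf and 43.2% ± 3.3 at Day 15 +Wnt, while Slit3 held 4.8% ± 1.5 and 23.3% ± 2.0 in those groups.

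All 3 tested Robo receptors were lower in +Fgf than in +Wnt at Day 12, beside 25.2% of all tested genes. Robo1, the broadly expressed receptor, read 146, 110 and 131 CPM at Day 10, 70.2, 73.1 and 72.3 CPM at Day 12 +Fgf, 161, 155 and 152 CPM at Day 12 +Wnt, 55.2, 62.2 and 72.3 CPM at Day 15 +Fgf, and 216, 208 and 201 CPM at Day 15 +Wnt. No +Fgf library reached the lowest Day 10 value and no +Wnt library was below the highest. It fell by 0.83 to Day 12 +Fgf (SE 0.09, limma adjusted p = 1.15e-06), and the stimulations differed by -1.11 at Day 12 and -1.72 at Day 15 (SE 0.09 for both, limma adjusted p = 2.64e-08 and 4.67e-11). The rise of 0.29 to Day 12 +Wnt (limma adjusted p = 0.0122) was lost without Day 10 replicate 2 (0.17) and with RNA integrity as a covariate (0.27).

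Robo2, the Robo receptor of most retinal ganglion cells, rose late in both stimulations. It read 39.9 to 44.9 CPM at Day 10, 29.4, 32.3 and 37.1 CPM at Day 12 +Fgf, 44.2, 41.1 and 51.2 CPM at Day 12 +Wnt, 123, 124 and 108 CPM at Day 15 +Fgf, and 96.3, 105 and 90.1 CPM at Day 15 +Wnt. Every Day 15 library was above every Day 12 library. The rise was 1.84 under +Fgf and 1.09 under +Wnt (SE 0.09 for both, limma adjusted p = 1.32e-10 and 2.54e-08). At Day 15 +Fgf was higher by 0.28 (limma adjusted p = 0.0127), a call lost without Day 15 +Fgf replicate 2 (0.25) or Day 15 +Wnt replicate 3 (0.23), with RNA integrity as a covariate (0.09) and under quantile normalization (0.17).

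Robo3 (XLOC_021648, chr9:37415669-37433246, minus strand), the receptor of commissural axons of the hindbrain and spinal cord that does not act as a typical Slit receptor in mammals, was low outside +Wnt. It read 1.16, 0.334 and 1.30 CPM at Day 10, 0.507, 1.08 and 0.256 CPM at Day 12 +Fgf, 15.7, 23.7 and 19.6 CPM at Day 12 +Wnt, 0.959, 1.30 and 5.23 CPM at Day 15 +Fgf, and 10.8, 14.4 and 11.5 CPM at Day 15 +Wnt. In reads, that is 4 to 17 at Day 12 +Fgf and 250 to 341 at Day 12 +Wnt, and every +Wnt library was above every other library. The difference between stimulations was -4.53 at Day 12 (SE 0.46, limma adjusted p = 3.98e-07) and -2.48 at Day 15 (SE 0.46, limma adjusted p = 0.000152). The Day 15 value was -3.13 without Day 15 +Fgf replicate 3 and -1.50, no longer called, with RNA integrity as a covariate. Its rise of 1.39 between Day 12 and Day 15 +Fgf (limma adjusted p = 0.0167) was lost without Day 15 +Fgf replicate 3 (0.74) or Day 12 +Fgf replicate 3 (1.08).

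Of 12 markers of commissural neurons in the hindbrain and spinal cord, 9 were tested. At Day 12, 8 of these were lower in +Fgf than in +Wnt, as Robo3 was, beside 25.2% of all tested genes. Their summed level was 35.4 to 63.6 CPM at Day 12 +Fgf, 165 to 214 CPM at Day 12 +Wnt, 293 to 347 CPM at Day 15 +Fgf and 324 to 444 CPM at Day 15 +Wnt. The sum was high at Day 15 +Fgf, where Robo3 was low, but its members differed. Cntn2 alone read 152 to 204 CPM at Day 15 +Fgf. Lhx9 read 0.703 to 3.44 CPM at Day 12 +Fgf and 24.3 to 33.6 CPM at Day 12 +Wnt. At Day 15 it read 5.60 to 9.68 CPM in +Fgf and 37.0 to 51.1 CPM in +Wnt. Across all libraries, Atoh1 read up to 0.927 CPM, Hoxa2 up to 0.820 CPM, Hoxb2 up to 1.27 CPM, Barhl1 up to 1.61 CPM and Olig3 up to 2.16 CPM. Barhl2 read 1.14 to 1.91 CPM at Day 12 +Fgf, 4.52 to 5.96 CPM at Day 12 +Wnt and 9.61 to 18.8 CPM at Day 15. Most of the sum was Cntn2, Nhlh1, Nhlh2 and Lhx9. Their part in the result was not tested. Robo4 ends 0.6 kb from the end of Robo3, on the opposite strand of chromosome 9, and stayed at 0.446 CPM or less.

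**Figure D3:**
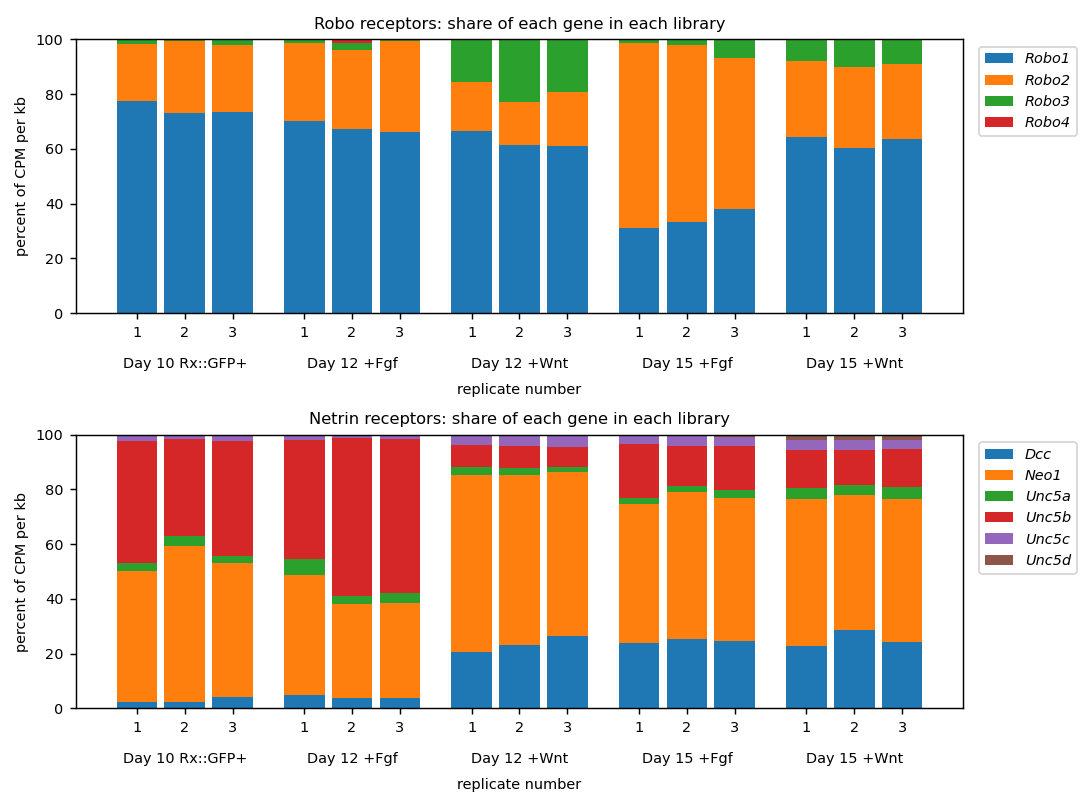
Stacked share, in percent of CPM per kilobase of merged exon, of each Robo receptor among the Robo receptors and of each netrin receptor among Dcc, Neo1 and the Unc5 receptors (vertical axes), in each of the 15 libraries (horizontal axis). Robo2 makes up 62.5% ± 6.4 of Robo RNA at Day 15 +Fgf and Robo3 19.1% ± 3.5 at Day 12 +Wnt, and Unc5b goes from 52.4% ± 7.7 of netrin receptor RNA at Day 12 +Fgf to 7.9% ± 0.5 at Day 12 +Wnt.

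Within the Robo receptors, compared per kilobase, Robo1 led at Day 10 with 74.7% ± 2.5 of Robo RNA (SD, n = 3), at Day 12 +Fgf with 67.9% ± 2.0, at Day 12 +Wnt with 63.0% ± 3.1 and at Day 15 +Wnt with 62.7% ± 2.2. At Day 15 +Fgf it held 34.2% ± 3.6 and Robo2 62.5% ± 6.4. Robo1 and Robo2 lie 845.7 kb apart on chromosome 16.

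Among the netrin receptors, Unc5b differed widely between the Day 12 groups. Unc5b (XLOC_001988, chr10:60762593-60831581, minus strand), the repulsive netrin receptor also known from blood vessels, read 164, 128 and 153 CPM at Day 10, 178, 285 and 288 CPM at Day 12 +Fgf, 23.5, 23.6 and 21.6 CPM at Day 12 +Wnt, 71.3, 49.1 and 54.8 CPM at Day 15 +Fgf, and 49.7, 54.0 and 45.9 CPM at Day 15 +Wnt. At Day 12 every +Fgf library was above Day 10 and every +Wnt library far below it, and at Day 15 the stimulations overlapped. Unc5b rose by 0.73 to Day 12 +Fgf (SE 0.16, limma adjusted p = 0.000898) and fell by 2.67 to Day 12 +Wnt (SE 0.16, limma adjusted p = 9.97e-10), for a difference of 3.40 between stimulations (SE 0.16, limma adjusted p = 2.98e-11). It then fell by 2.08 under +Fgf and rose by 1.11 under +Wnt (SE 0.16 for both, limma adjusted p = 1.24e-08 and 8.73e-06). The Day 15 difference was 0.21 (95% interval -0.12 to 0.54, limma adjusted p = 0.239).

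Because Unc5b and Efnb2 are also vascular genes, endothelial markers were read beside them. The sum of 10 markers was 37.8 to 62.1 CPM at Day 10, 101 to 172 CPM at Day 12 +Fgf, 7.59 to 11.1 CPM at Day 12 +Wnt, 219 to 269 CPM at Day 15 +Fgf and 24.3 to 30.4 CPM at Day 15 +Wnt. Most of the sum at Day 10 and in +Fgf was Kdr, a receptor that neural progenitors of the retina also carry, at 98.1 to 169 CPM at Day 12 +Fgf against 3.15 to 6.82 CPM at Day 12 +Wnt. Pecam1, an endothelial adhesion molecule, ran the other way, at 0.639 to 0.887 CPM at Day 12 +Fgf, 1.89 to 1.95 CPM at Day 12 +Wnt and up to 4.92 CPM at Day 15 +Wnt. Cdh5, the endothelial cadherin, stayed at 0.382 CPM or less in all 15 libraries, and Emcn had at most 3 reads in each. Of the 10 markers, 5 were tested, of which 1 was higher and 2 were lower in +Fgf than in +Wnt at Day 12. Their part in the levels of Unc5b and Efnb2 was not tested.

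Dcc (XLOC_009798), the attractive netrin-1 receptor of retinal ganglion cell and other axons, rose with time in both stimulations, and earlier under +Wnt. It read 18.4, 18.8 and 31.3 CPM at Day 10, 42.0, 38.7 and 41.7 CPM at Day 12 +Fgf, 124, 140 and 164 CPM at Day 12 +Wnt, 181, 179 and 177 CPM at Day 15 +Fgf, and 174, 252 and 169 CPM at Day 15 +Wnt. The Day 12 groups were apart from Day 10 and from each other, and the Day 15 groups overlapped. Dcc rose by 0.87 to Day 12 +Fgf and by 2.67 to Day 12 +Wnt (SE 0.17 for both, limma adjusted p = 0.000356 and 2.22e-09), and then by 2.12 under +Fgf (SE 0.17, limma adjusted p = 2.28e-08). Between Day 12 and Day 15 +Wnt the change was 0.46 (SE 0.17, limma adjusted p = 0.0242), a call lost without Day 12 +Wnt replicate 1 (0.36) or 2 (0.45) and without Day 15 +Wnt replicate 2 (0.27). The Day 15 difference between stimulations was -0.12 (95% interval -0.48 to 0.23, limma adjusted p = 0.525). Beside it, the summed level of 18 ganglion cell and early neuron markers went from 187 to 274 CPM at Day 10 to 404 to 439 CPM at Day 12 +Fgf, 729 to 1038 CPM at Day 12 +Wnt, 2675 to 2971 CPM at Day 15 +Fgf and 1655 to 2058 CPM at Day 15 +Wnt. The members of this sum differed. At Day 12, 4 of the 17 tested markers were higher and 11 lower in +Fgf than in +Wnt, beside 26.3% and 25.2% of all tested genes. Pou4f2, a ganglion cell marker, read 8.47 to 15.5 CPM at Day 12 +Fgf and 0.0629 to 0.265 CPM at Day 12 +Wnt. Atoh7 of this list read 10.9 to 13.9 CPM and 0.418 to 0.530 CPM. At Day 15, Pou4f2 read 77.9 to 87.3 CPM in +Fgf and 0.620 to 2.03 CPM in +Wnt. The part of these markers in the level of Dcc was not tested.

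Neo1, the Dcc relative that also binds repulsive guidance molecules, was called in none of the 6 comparisons. It read 237 to 290 CPM in all 15 libraries, and its widest log2 difference was -0.09 between +Fgf and +Wnt at Day 15 (95% interval -0.22 to 0.04, limma adjusted p = 0.223).

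Unc5a and Unc5d were lower than Unc5b per kilobase in all groups. Unc5a, a repulsive netrin receptor of neurons, read 7.36, 8.42 and 6.11 CPM at Day 10, 15.7, 10.3 and 13.2 CPM at Day 12 +Fgf, 5.35, 4.73 and 3.44 CPM at Day 12 +Wnt, 4.50, 4.33 and 6.64 CPM at Day 15 +Fgf, and 9.68, 9.62 and 9.19 CPM at Day 15 +Wnt. As for Unc5b, Day 12 +Fgf was above and Day 12 +Wnt below Day 10, but at Day 15 the +Wnt libraries were the higher ones. The difference was 1.48 at Day 12 (SE 0.19, limma adjusted p = 6.46e-06) and -0.87 at Day 15 (SE 0.19, limma adjusted p = 0.000698), the latter -0.57 and not called with RNA integrity as a covariate. Unc5d read 2.18, 1.20 and 2.37 CPM at Day 10, 0.824, 0.892 and 1.02 CPM at Day 12 +Fgf, 1.57, 2.64 and 2.98 CPM at Day 12 +Wnt, 0.959, 2.75 and 5.02 CPM at Day 15 +Fgf, and 9.80, 12.1 and 10.2 CPM at Day 15 +Wnt. Only Day 15 +Wnt stood clear of all other libraries, with a rise of 2.06 from Day 12 (SE 0.38, limma adjusted p = 0.000126). Its difference from Day 15 +Fgf was -2.00 (limma adjusted p = 0.000165), or -2.49 without Day 15 +Fgf replicate 3 and -1.52, not called, with RNA integrity as a covariate. The rise of 1.18 between Day 12 and Day 15 +Fgf (limma adjusted p = 0.0137) was lost without Day 15 +Fgf replicate 3 (0.69), and the Day 12 difference of -1.12 (limma adjusted p = 0.0202) was lost without Day 12 +Fgf replicate 1 (-1.06) or Day 12 +Wnt replicate 2 (-1.03) or 3 (-0.96). Unc5c ranged from 16.1 CPM at Day 10 to 48.5 CPM at Day 15 +Wnt. All 4 Unc5 receptors were called higher at Day 15 +Wnt than at Day 12 +Wnt, beside 32.5% of all tested genes.

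Per kilobase, Unc5b held 40.7% ± 4.7 of netrin receptor RNA at Day 10, then 52.4% ± 7.7 with +Fgf and 7.9% ± 0.5 with +Wnt at Day 12, and 16.9% ± 2.7 with +Fgf and 13.5% ± 0.5 with +Wnt at Day 15. Dcc held 3.0% ± 1.0, 4.1% ± 0.6, 23.3% ± 2.9, 24.6% ± 0.8 and 25.2% ± 3.0 in the same order of groups. Neo1 was the most abundant netrin receptor in each group but Day 12 +Fgf, with 51.3% ± 4.9 at Day 10 and 37.6% ± 5.5 at Day 12 +Fgf.

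Among the secreted ligands of these receptors, Ntn1 stayed low and Ntn4 rose under +Fgf. Ntn1, netrin-1, read 1.29, 1.87 and 2.83 CPM at Day 10, 3.68, 3.70 and 2.87 CPM at Day 12 +Fgf, 6.48, 4.18 and 4.90 CPM at Day 12 +Wnt, 3.10, 5.43 and 3.11 CPM at Day 15 +Fgf, and 7.69, 8.43 and 6.52 CPM at Day 15 +Wnt. Day 10 was lowest, with no library reaching either Day 12 group, and Day 15 +Wnt was above Day 15 +Fgf. The rise to Day 12 +Wnt was 1.29 (SE 0.25, limma adjusted p = 0.000291). That of 0.74 to Day 12 +Fgf (limma adjusted p = 0.018) was lost without Day 10 replicate 1 (0.50) or Day 12 +Fgf replicate 1 (0.69) or 2 (0.68). It was also lost with RNA integrity as a covariate (0.63). Ntn4, a netrin of basement membranes, read 8.79, 6.75 and 6.04 CPM at Day 10, 12.9, 12.4 and 13.4 CPM at Day 12 +Fgf, 9.62, 10.4 and 8.34 CPM at Day 12 +Wnt, 28.5, 27.6 and 26.6 CPM at Day 15 +Fgf, and 9.49, 8.35 and 9.12 CPM at Day 15 +Wnt. Day 15 +Fgf stood above all other libraries, with a rise of 1.08 from Day 12 (SE 0.12, limma adjusted p = 1.26e-06) and a difference of 1.59 from Day 15 +Wnt (SE 0.12, limma adjusted p = 5.86e-09). The entry that joins Ntn3 with Tbc1d24 read 32.6 to 82.6 CPM, and the share of Ntn3 in it cannot be told apart.

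The netrin-G genes encode membrane-anchored relatives of netrins that bind partners on other neurites, not Dcc. Ntng2 (XLOC_011724, chr2:29194541-29253005, minus strand) read 2.52, 2.41 and 3.97 CPM at Day 10, 1.20, 2.29 and 0.958 CPM at Day 12 +Fgf, 5.60, 3.69 and 4.57 CPM at Day 12 +Wnt, 17.8, 16.4 and 16.8 CPM at Day 15 +Fgf, and 40.2, 44.7 and 34.4 CPM at Day 15 +Wnt. The Day 15 libraries were above all earlier ones, and +Wnt was above +Fgf on both days. It rose by 3.35 under +Fgf and by 3.04 under +Wnt from Day 12 to Day 15 (SE 0.23 for both, limma adjusted p = 4.8e-09 and 6.97e-09). The difference of these rises was 0.31 (95% interval -0.38 to 1.01, limma adjusted p = 0.455). Ntng1 reached 5.77, 5.59 and 3.72 CPM at Day 15 +Wnt from 1.51, 2.16 and 2.32 CPM at Day 12 +Wnt, a rise of 1.21 (SE 0.34, limma adjusted p = 0.00492) that was not called under quantile normalization (0.54), and it read 0.669 to 3.46 CPM in the other groups.

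**Figure D4:**
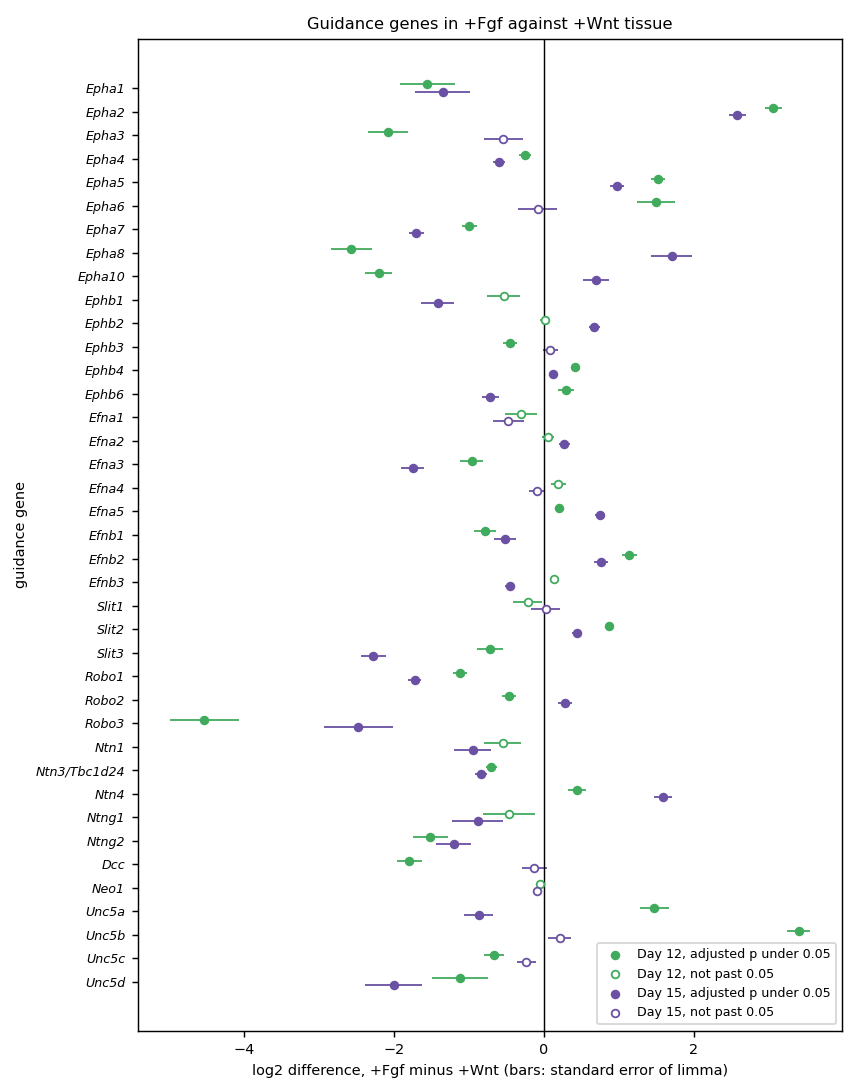
Difference between +Fgf and +Wnt on the log2(CPM + 0.3) scale (horizontal axis, ± SE of the limma fit) at Day 12 and at Day 15 for the 39 tested guidance genes, with filled symbols for a limma adjusted p under 0.05. Unc5b (3.40) and Epha2 (3.06) lie farthest to the +Fgf side and Robo3 (-4.53) farthest to the +Wnt side at Day 12, and at Day 15 Unc5b and Dcc lie near 0.

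The change from Day 12 to Day 15 differed between the stimulations for 26 of the 39 members (66.7%), beside 47.9% of all tested genes (27.0% and 20.9% in the directions named next), with 10 changes more upward under +Fgf and 16 more upward under +Wnt. For 11 of the 39 (28.2%) the difference was at least 1, beside 14.2% of all genes. With RNA integrity as a covariate the first count was 15, with 8 more upward under +Fgf and 7 under +Wnt. The share of all genes called in that fit is not given here. The differences were widest for Epha8 (4.28, SE 0.39, limma adjusted p = 2.06e-07, with 5.48 and 3.21 when 0.05 and 1 were added) and Epha10 (2.90, SE 0.25, limma adjusted p = 1.16e-07) on the +Fgf side, and for Unc5b (-3.19, SE 0.22, limma adjusted p = 1.17e-08) and Unc5a (-2.34, SE 0.27, limma adjusted p = 2.72e-06) on the +Wnt side. Called changes went in opposite directions in the stimulations for 6 members. Ephb2 rose under +Fgf and fell under +Wnt, while Epha7, Ephb6, Slit3, Unc5a and Unc5b fell under +Fgf and rose under +Wnt. The share of all genes with such opposite calls was not counted. With RNA integrity as a covariate, the falls under +Fgf were not called for Epha7 (-0.14), Slit3 (-0.51) and Unc5a (-0.97). The rise of Epha7 under +Wnt was lost without Day 15 +Wnt replicate 2 (0.26).

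**Figure D5:**
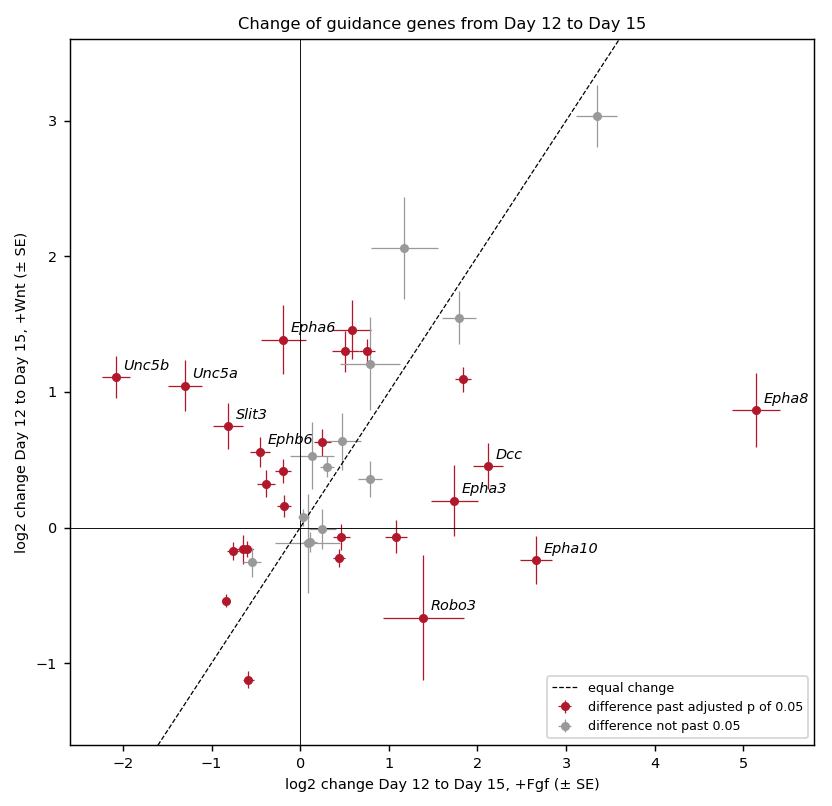
Change from Day 12 to Day 15 under +Fgf (horizontal axis) against that under +Wnt (vertical axis) on the log2(CPM + 0.3) scale for the 39 tested guidance genes, with bars for the SE of the limma fit and a dashed line of equal change, in red where the limma test of the difference between these changes has an adjusted p under 0.05 and with 10 genes labelled. Epha8 lies at 5.14 under +Fgf and 0.87 under +Wnt, and Unc5b at -2.08 and 1.11.

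Compared per kilobase within a group, the guidance transcript with the highest mean was Efnb3 at Day 10 (42.3 CPM per kilobase ± 1.76, SD, n = 3), Neo1 at Day 12 +Wnt (29.0 ± 0.740), Efnb2 at Day 15 +Fgf (46.6 ± 5.66) and Neo1 at Day 15 +Wnt (30.7 ± 2.82, with Efnb2 at 27.4 ± 2.67). At Day 12 +Fgf, Unc5b (40.0 ± 10.0) and Efnb2 (39.1 ± 3.34) did not differ beyond their spread.

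Genes that act with these receptors inside or beside the cell were counted from lists of known partners. Of 26 Eph and ephrin signalling partners, 10 were higher and 7 lower in +Fgf than in +Wnt at Day 12 and 16 higher and 5 lower at Day 15. Of all tested genes, 51.5% and 68.7% were called on these days. Grb10, an adaptor that binds activated receptor kinases including Eph receptors and is also known as an imprinted growth regulator, averaged 259 CPM at Day 12 +Fgf and 3.36 CPM at Day 12 +Wnt (log2 difference 6.14, SE 0.21, limma adjusted p = 1.26e-12), and Adam12, a metalloprotease, averaged 14.2 and 1.14 CPM (3.31, SE 0.22, limma adjusted p = 1.86e-09). Of 23 Slit and Robo partners, 10 were higher and 6 lower in +Fgf at Day 12 and 5 higher and 11 lower at Day 15. So 16 of 23 were called on each day, and the Day 15 share is about that of all genes (68.7%). Nell2, a ligand of Robo3, averaged 3.54 CPM at Day 12 +Fgf and 14.1 CPM at Day 12 +Wnt (-2.13, SE 0.35, limma adjusted p = 7.65e-05).

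Of 24 partners of netrins and their receptors, 7 were higher and 13 lower in +Fgf than in +Wnt at Day 12 and 5 higher and 11 lower at Day 15. The latter 16 of 24 are again about the 68.7% of all genes. Draxin, a secreted protein that binds Dcc and netrin-1, averaged 21.5 CPM at Day 12 +Fgf and 70.2 CPM at Day 12 +Wnt (-1.69, SE 0.09, limma adjusted p = 1.12e-10). Trim67, a ubiquitin ligase that binds Dcc, averaged 1.44 and 6.47 CPM (-1.95, SE 0.25, limma adjusted p = 4.84e-06). Dscam, a netrin-binding adhesion molecule of neurons, rose from 1.27 to 20.5 CPM between Day 12 and Day 15 +Fgf (3.75, SE 0.19, limma adjusted p = 1.05e-10) and from 3.10 to 13.6 CPM under +Wnt (2.04, SE 0.19, limma adjusted p = 5.54e-08).

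Retinal axis factors, which set the gradients of Eph receptors and ephrins in the optic cup, mostly fell under +Wnt. Of 12 such genes 11 were tested, of which 9 were lower and 1 higher at Day 12 +Wnt than at Day 10. Of all tested genes, 29.6% were lower and 30.6% higher. At Day 12 +Fgf 2 axis factors were lower and 9 were not called, beside 27.8% of all genes lower. The median log2 difference of the axis factors between +Fgf and +Wnt was 1.79 at Day 12 and 2.78 at Day 15, beside -0.0021 and 0.051 over all genes. At Day 12, 9 were higher and 2 lower in +Fgf. Foxd1 was among the lower ones, averaging 2.48 CPM in +Fgf and 8.26 CPM in +Wnt (-2.56, SE 0.69, limma adjusted p = 0.00539). Tbx3, a factor of the dorsal retina, averaged 38.5 CPM at Day 12 +Fgf and 3.32 CPM at Day 12 +Wnt (3.44, SE 0.25, limma adjusted p = 7.78e-09).

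Markers of other cell types moved with the groups as well. Of 12 pigment epithelium markers 10 were tested. All 10 were lower in +Fgf than in +Wnt on both days, beside 25.2% of all tested genes at Day 12 and 30.6% at Day 15. Summed levels were 546 to 583 CPM at Day 12 +Fgf, 2409 to 2964 CPM at Day 12 +Wnt and 7875 to 10301 CPM at Day 15 +Wnt. Rpe65 of this list had at most 3 reads in every library, Day 15 +Wnt included. Retinal progenitor markers were 8 higher and 1 lower of 10 in +Fgf at Day 12 and 10 higher of 10 at Day 15. Of all tested genes, 26.3% and 38.0% were higher in +Fgf on these days. Neural crest and mesenchyme markers summed to 368 to 410 CPM at Day 15 +Wnt and 61.1 to 86.5 CPM at Day 15 +Fgf, the groups between which Ephb1, Unc5d and Efna3 differed. Their part in those results was not tested.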

How the data were processed

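The deposited signal values are read counts per gene that the authors scaled to CPM with edgeR's TMM factors, after, by their processing notes, alignment to mm10 with TopHat2 (2.0.8b) and counting with Cuffdiff (Cufflinks 2.1.1). Low values were whole multiples of 1 read for 100% of values (tolerance 0.01 reads), which gave depths of 12556998 to 16175450 reads per library. That number of reads limits the precision of low genes. Values were tested on log2(CPM + 0.3) with limma 3.58.1 in R 4.3.3, in 1 model of 5 group means over 15 libraries with a trended prior. Of 23244 entries, 13845 passed a minimum of 1 CPM, relative to the sum of the column, in 3 or more libraries. Benjamini-Hochberg adjustment ran over these within each comparison.

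Members and lists were chosen with earlier results of these data known. A member was given in every library if it had an adjusted p under 0.05 and a log2 difference of at least 1 in 1 of the 6 comparisons and at least 5 CPM in 1 group mean. For the difference of changes between the stimulations, the 5 largest in each direction were named, and up to 3 genes per partner list and comparison. Partners, axis factors and cell type markers were counted from 10 lists. Intervals are 95% intervals of the limma estimate. Alternatives were other pseudocounts, filters and scalings (quantile, and median-of-ratios with DESeq2 1.42.0), RNA integrity as a covariate, edgeR 4.0.16 on the recovered reads, the libraries of each comparison alone and leaving out each library. The script was tested on simulated data.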

Additional observations from a re-analysis of the deposited data

Results flagged for a closer look

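Of the 26 members whose change from Day 12 to Day 15 differed between the stimulations by the limma test of that difference, the 5 with the largest estimates in each direction are listed, given as the +Fgf change minus the +Wnt change on the log2(CPM + 0.3) scale. The +Fgf change was the more upward one for Epha8 (4.28, limma adjusted p = 2.06e-07), Epha10 (2.90, adjusted p = 1.16e-07 by limma), Robo3 (2.05, limma adjusted p = 0.016, and 1.40 without Day 15 +Fgf replicate 3), Dcc (1.67, limma adjusted p = 2.6e-05) and Epha3 (1.54, limma adjusted p = 0.00271). Epha8 is the receptor known from the superior colliculus, and Robo3 the receptor of commissural axons.

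The +Wnt change was the more upward one for Unc5b (-3.19, limma adjusted p = 1.17e-08), Unc5a (-2.34, limma adjusted p = 2.72e-06), Epha6 (-1.58, limma adjusted p = 0.00176), Slit3 (-1.56, limma adjusted p = 5.78e-05) and Ephb6 (-1.01, limma adjusted p = 5.53e-05). Of these, Unc5a and Unc5b are repulsive netrin receptors. Epha6 rested on 8 to 22 reads per library at Day 12 +Wnt, and its difference under other settings is not given here.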

How the results depend on the processing

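The 131 called values of 23 members were repeated under other settings, 2323 times in all. These members had been chosen for a call, a log2 difference of at least 1 and at least 5 CPM. Of the repeats, 2207 kept their direction and call, 115 lost the call and 1 turned. The other members, Epha6 and Ephb6 included, are not in this count. The repeats that lost a call numbered 56 on leaving out 1 library, 29 with RNA integrity (RIN) as a covariate, 10 under quantile normalization and 0 under median-of-ratios scaling. The Epha2 difference of changes between the stimulations turned from -0.48 to 0.0863 under quantile normalization (limma adjusted p = 0.649), and the cause was not tested. With RIN as a covariate, called members numbered 18 for Day 15 +Fgf against Day 12 +Fgf, 15 between the stimulations at Day 15 and 15 for the difference of changes. All of these hold Day 15 +Fgf, whose RIN values lay below those of Day 12 +Fgf and Day 15 +Wnt without overlap. RIN and group thus cannot be told apart there, and this fit also spends a degree of freedom on 1 more term. Day 10 RIN values likewise lay below those of both Day 12 groups without overlap. With RIN, 22 members were called for Day 12 +Fgf against Day 10 and 25 for Day 12 +Wnt against Day 10. Leaving out 1 library, with the remaining libraries of its group assumed to vary like the others, gave 25 to 27 called members for Day 12 +Fgf against Day 10, 27 to 28 for Day 12 +Wnt against Day 10, 26 to 30 for Day 15 +Fgf against Day 12 +Fgf, 22 to 26 for Day 15 +Wnt against Day 12 +Wnt, 26 to 31 and 27 to 30 between the stimulations at Day 12 and Day 15, and 23 to 26 for the difference of changes. Of changes of at least 1, the 5 members for Day 12 +Fgf against Day 10 became 2 with 1 CPM added and 10 with RIN, and the 12 between the stimulations at Day 15 became 7 with RIN. Same-numbered replicates showed no strong shared deviation (r from -0.2525 to 0.215), which cannot settle whether the numbers pair the libraries. A fit with the replicate number as a block called 28, 31, 30, 27, 30, 29 and 26 members in the order of the comparisons above. The edgeR count test on the recovered reads called 27, 29, 29, 26, 29, 31 and 26 members in that order. The shares of all genes called under these other settings are not given here. Shifts in the member counts therefore cannot be set against a background. Depth limits the low members, since Robo3 rested on 4 to 17 reads per library at Day 12 +Fgf.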
